A study of Mus musculus with 2 samples.

Results

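The genes described here are 7 transcription factor genes of upper-layer cortical neurons, *Cux1*, *Cux2*, *Pou3f1*, *Pou3f2*, *Pou3f3*, *Rorb* and *Mef2c*, chosen by name out of the 24411 genes listed. They were measured by laser capture microdissection (LCM), in which an area of a stained tissue section is cut out with a laser, followed by bulk RNA-seq. The study developed a light-directed method for barcoding molecules in tissue, and its LCM libraries, cut from an adjacent slide, served as the benchmark. The tissue was fresh-frozen mouse brain at embryonic day 16.5, and the areas were the subventricular zone (SVZ) and the cortex, with 1 library each. For both, heads of embryos from timed matings were frozen in OCT resin and cryosectioned, the sections were stained with haematoxylin and eosin, and no treatment or transgene is named. The sources used here do not give strain, sex or the number of embryos behind each library. Because each area was 1 library, no difference between the areas has a replicate check and no p-value was computed.

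The mammalian cortex is built from the inside out. Progenitors next to the ventricle first give rise to the neurons of the deep layers and then to those of the upper layers, which pass through the SVZ and migrate past the older neurons to settle beneath the pial surface. *Cux1*, *Cux2*, *Pou3f2* and *Pou3f3* are switched on in this lineage early, in dividing progenitors of the SVZ or in young migrating neurons, and remain on in many upper-layer neurons. *Rorb*, known for the thalamus-recipient middle layer, and *Mef2c*, an activity-responsive factor of maturing excitatory neurons, are associated with neurons that have reached the cortex.

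Gene-assigned reads numbered 51435667 in the SVZ library, 59.0% of its reads, and 22050693 in the cortex library, or 59.1%. The SVZ library was therefore 2.33 times deeper. Levels are given as CPM, reads divided by the library's gene-assigned reads and scaled up, so that 1 read was worth 0.0194 CPM there and 0.0453 CPM in the cortex. The areas were compared by marker lists. These were chosen with earlier results of these data known, so they are no independent check of the dissection. All 10 progenitor genes passed 4-fold in favour of the SVZ, beside 10.2% of all genes whose mean over both libraries was at least 1 CPM. Their median log2 CPM ratio (SVZ over cortex) was 5.94. *Fabp7*, a radial glia gene, had 4973 CPM in the SVZ and 39.0 CPM in the cortex. All 10 projection neuron genes were higher in the cortex library, 7 of them by at least 4-fold beside 7.01% of those genes. The median log2 ratio of this list was -3.04. The SVZ library was not free of neuronal RNA, since *Neurod6*, a gene of young projection neurons, stood at 1592 CPM there against 2797 CPM in the cortex.

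The 7 factors fell into groups with opposite distributions. *Pou3f2*, *Pou3f3*, *Cux1*, *Cux2* and *Pou3f1* were higher in the SVZ library, by 2.98-, 2.53-, 1.83-, 1.52- and 1.20-fold in CPM. *Rorb* and *Mef2c* were higher in the cortex library, by 8.75- and 33.5-fold. The cortex-higher pair was thus further from equality than any of the SVZ-higher factors, and *Mef2c* was the furthest. In bulk tissue, fewer cells of a type and less RNA per cell cannot be told apart.

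**Figure D1:**
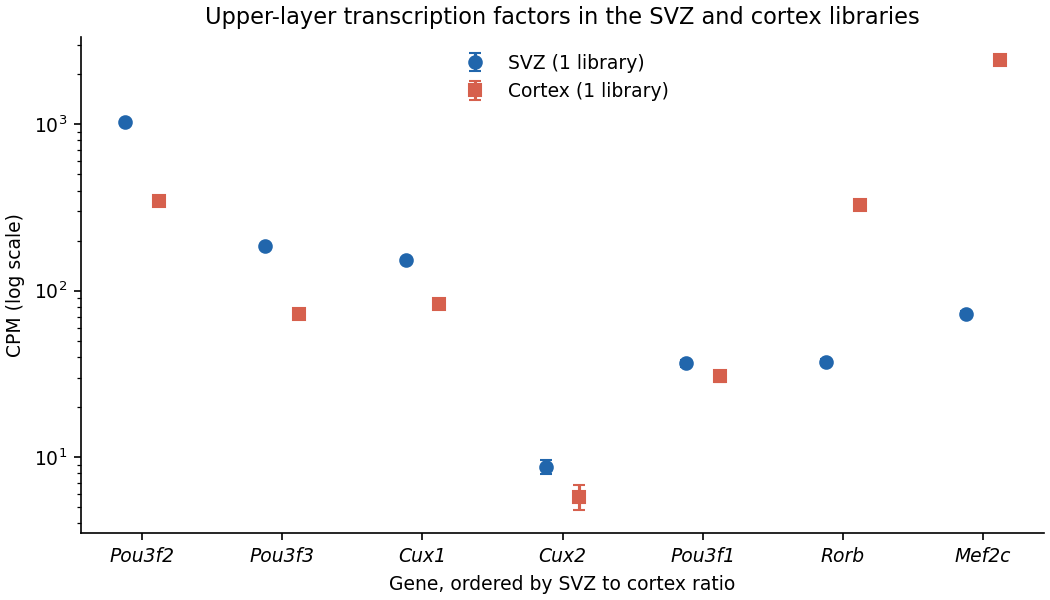
CPM of each factor (log scale) in the SVZ library (circles) and the cortex library (squares), 1 library each, with exact 95% counting intervals that are mostly smaller than the symbols. The circle lies above the square for the first 5 genes, from *Pou3f2* at 1027 against 345 CPM to *Pou3f1* at 36.6 against 30.6 CPM, and far below it for *Rorb* and *Mef2c*.

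The class III POU factors were considered first. These are homeodomain proteins with a second DNA-binding domain, the POU-specific domain. *Pou3f2* (Brn2) and *Pou3f3* (Brn1) act redundantly in the production and migration of upper-layer neurons, and *Pou3f1* (Oct6) is better known from Schwann cells. All 3 are single-exon genes, and on GRCm38 *Pou3f1* lies at chr4:124656807-124660655 on the plus strand, *Pou3f2* at chr4:22482780-22488366 on the minus strand and *Pou3f3* at chr1:42695768-42703176 on the plus strand. Reads can be shared between such close relatives, so their coding sequences (GENCODE M21) were aligned. Identity was 63.8% for *Pou3f1* with *Pou3f2*, 65.3% for *Pou3f1* with *Pou3f3* and 70.3% for *Pou3f2* with *Pou3f3*. The most alike stretch of read length, 75 bases inside the POU-specific domain, is shown 5′ to 3′ to let the distance between the 3 genes be seen, and capitals mark the 7 positions that differ:
Pou3f1, chr4:124658556-124658630, plus strand: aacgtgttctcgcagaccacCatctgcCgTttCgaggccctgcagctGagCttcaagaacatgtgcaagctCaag
Pou3f2, chr4:22487151-22487225, minus strand: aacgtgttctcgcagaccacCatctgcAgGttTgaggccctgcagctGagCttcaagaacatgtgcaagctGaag
Pou3f3, chr1:42698193-42698267, plus strand: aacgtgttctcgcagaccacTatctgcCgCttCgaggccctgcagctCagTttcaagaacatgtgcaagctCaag
The longest run of coding positions identical in all 3 was 20 bases, and no 75-base stretch of their transcripts occurred in a transcript of another POU gene.

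The SVZ gave 52817 reads of *Pou3f2* and the cortex 7609, which is 1027 and 345 CPM. The log2 CPM ratio was 1.57, with an exact (Clopper-Pearson) 95% interval of 1.54 to 1.61. This interval and those that follow hold counting error alone. Reads were amplified by PCR and carry no molecular identifier, so they are not independent molecules, and variation among animals or dissections is not covered. For *Pou3f3* the reads were 9493 and 1607, or 185 and 72.9 CPM, and a log2 ratio of 1.34 (1.26 to 1.42). The relatives lay close together, and the difference of 0.23 between their log2 ratios (0.15 to 0.32) was still larger than counting error. *Pou3f1* had 1884 and 675 reads, or 36.6 and 30.6 CPM, so that its libraries were much more alike, with a log2 ratio of 0.26 (0.13 to 0.39). *Pou3f4* (Brn4), the remaining class III gene, had 474 and 54 reads and the highest log2 ratio of the 4, 1.91 (1.50 to 2.35). Its interval contains that of *Pou3f2*, so the order of these 2 is not settled.

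*Pou3f2* supplied most of the class III POU reads in both areas. Such shares are of reads, not corrected for gene length, and serve to compare the libraries. Together the 4 genes reached 1257 CPM in the SVZ against 451 CPM in the cortex. *Pou3f2* held 81.7% of the family's reads in the SVZ (interval 81.4 to 82.0) and 76.5% in the cortex (75.7 to 77.3). *Pou3f1* moved the other way, from 2.91% (2.79 to 3.05) in the SVZ to 6.79% (6.30 to 7.30) in the cortex. *Pou3f3* held 14.7% and 16.2%, and *Pou3f4* stayed below 1% in both, at 0.733% and 0.543%.

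The CUX factors carry CUT repeats together with a homeodomain and mark upper-layer neurons from their birth into the adult. *Cux1* lies at chr5:136248135-136567490 and *Cux2* at chr5:121856366-122050102, both on the minus strand, with 24 and 23 exons in the longest transcript. The *Cux1* locus also encodes CASP, a Golgi protein made from an alternative transcript, and a gene-level count cannot separate the products. The coding sequences were 62.2% identical. Their most alike 75 bases, within a CUT repeat and across the junction of exons 18 and 19 in both genes, are shown 5′ to 3′ with the 8 differing positions in capitals, because this is where reads of the pair come closest:
Cux1, chr5:136305597-136307815 with the intron, minus strand: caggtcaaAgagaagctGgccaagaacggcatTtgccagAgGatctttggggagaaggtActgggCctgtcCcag
Cux2, chr5:121868599-121869064 with the intron, minus strand: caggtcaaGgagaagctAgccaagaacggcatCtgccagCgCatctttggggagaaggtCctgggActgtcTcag
The longest identical coding run was 23 bases, and no 75-base stretch was common to the transcripts of the 2 genes.

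For *Cux1*, 7866 reads came from the SVZ against 1846 from the cortex, 153 and 83.7 CPM, with a log2 ratio of 0.87 (0.80 to 0.94). *Cux2* had the fewest reads of the 7 factors in both areas, 451 and 127, or 8.77 and 5.76 CPM, and a log2 ratio of 0.61 (0.32 to 0.90). Both were therefore moderately higher in the SVZ. Their log2 ratios differed by 0.26 (-0.04 to 0.56), the only one of the 21 pairs among the 7 factors whose difference was within counting error. *Cux2* made up 5.42% of CUX reads in the SVZ (4.95 to 5.93) and 6.44% in the cortex (5.39 to 7.61), and these intervals overlapped. A difference in CUX makeup between the areas was thus not detectable at this depth.

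*Rorb* encodes an orphan nuclear receptor needed for the identity of middle-layer neurons and for barrel formation in the somatosensory cortex. It lies at chr19:18930605-19111196 on the minus strand, with 10 exons in its longest transcript. The read counts were 1914 in the SVZ and 7182 in the cortex, or 37.2 and 326 CPM. The log2 ratio was -3.13 (-3.20 to -3.06). Its paralogue *Rora*, known for the cerebellum and thalamus, went the other way, at 1.05 (0.73 to 1.39) from 445 and 92 reads. *Rorb* accordingly took 81.1% of the reads of this pair in the SVZ (79.5 to 82.7) and 98.7% in the cortex (98.5 to 99.0). The pair with opposite directions is shown at its most alike 75 coding bases, 5′ to 3′ in the zinc finger DNA-binding region, with 11 differing positions in capitals:
Rorb, chr19:18983451-18988072 with the intron, minus strand: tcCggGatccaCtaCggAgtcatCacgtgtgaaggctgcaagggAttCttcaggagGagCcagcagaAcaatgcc
Rora, chr9:69348176-69361771 with the intron, plus strand: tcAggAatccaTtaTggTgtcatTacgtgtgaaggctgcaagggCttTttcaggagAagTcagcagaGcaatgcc

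*Mef2c* encodes a MADS-box factor that acts in neuronal differentiation and in the restraint of excitatory synapse number, and is also known from muscle, endothelium and microglia. The gene lies at chr13:83504034-83667080 on the plus strand, with 31 annotated transcripts. Its 3742 reads in the SVZ were 72.8 CPM, and its 53686 reads in the cortex were 2435 CPM. The log2 ratio of -5.06 (-5.11 to -5.02) was 1.93 below that of *Rorb* (1.85 to 2.02). More of its reads came from the cortex library even though that library was the shallower one.

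The relatives of *Mef2c* were also higher in the cortex, but by far less. *Mef2a* had 42.8 CPM in the SVZ and 75.3 CPM in the cortex, with a log2 ratio of -0.82 (-0.91 to -0.72). *Mef2d*, with 85 and 58 reads, had a log2 ratio of -0.67 (-1.17 to -0.16), and *Mef2b* had 0 and 3 reads, too few for a ratio. The MEF2 family therefore changed its makeup between the areas. *Mef2c* held 62.1% of MEF2 reads in the SVZ (60.9 to 63.3) beside 36.5% from *Mef2a*, and 96.9% in the cortex (96.7 to 97.0) beside 3.00%. *Mef2c* and *Mef2a* are shown at their most alike 75 coding bases, 5′ to 3′ within the MADS box, with the 11 differing positions in capitals:
Mef2c, chr13:83592799-83592873, plus strand: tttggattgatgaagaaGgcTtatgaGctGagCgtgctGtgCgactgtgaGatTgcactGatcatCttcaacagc
Mef2a, chr7:67295483-67295557, minus strand: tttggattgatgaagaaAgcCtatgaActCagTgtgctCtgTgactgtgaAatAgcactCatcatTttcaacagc

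**Figure D2:**
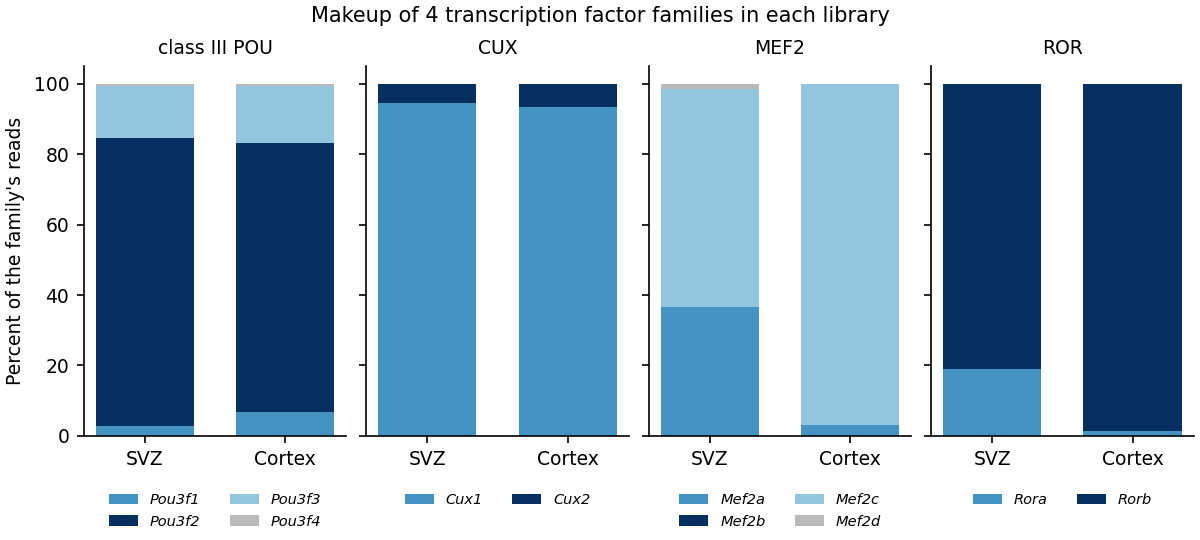
Share of each gene in the reads of its family (percent) in the SVZ and cortex libraries, for the class III POU, CUX and MEF2 families and the ROR genes *Rora* and *Rorb*, 1 bar per library. *Pou3f1* goes from 2.91% to 6.79% of class III POU reads and *Cux2* from 5.42% to 6.44% of CUX reads, while *Mef2c* goes from 62.1% to 96.9% of MEF2 reads and *Rorb* from 81.1% to 98.7% of *Rora* and *Rorb* reads.

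To compare levels between genes, reads were divided by the length of each gene's merged exons (RPKM, the CPM per kilobase of exon). In the SVZ the order of levels was *Pou3f2* at 184 RPKM, *Pou3f3* at 24.9, *Pou3f1* at 9.52, *Cux1* at 7.64, *Mef2c* at 4.63, *Rorb* at 3.36 and *Cux2* at 0.870 RPKM. In the cortex it was *Mef2c* at 155 RPKM, *Pou3f2* at 61.8, *Rorb* at 29.4, *Pou3f3* at 9.84, *Pou3f1* at 7.95, *Cux1* at 4.18 and *Cux2* at 0.571 RPKM. *Pou3f2* thus stayed among the highest of the 7 in both areas and *Cux2* was last in both, while *Mef2c* went from the fifth place to the first. No neighbours in either order had overlapping counting intervals, the closest being *Pou3f3* (9.36 to 10.3 RPKM) and *Pou3f1* (7.36 to 8.58 RPKM) in the cortex. The middle of the SVZ order depends on the length used. With the longest transcript in place of merged exons, *Cux1* had 11.9 and *Mef2c* 11.6 RPKM there, both above *Pou3f1*.

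The ratios were then set against all genes. A minimum of 10 CPM, as the mean of both libraries, was passed by 6 of the 7 factors but not by *Cux2*. Of these 6, 4 were higher in the SVZ and 2 in the cortex with the whole counting interval beyond equal CPM. Among all 9027 genes that passed the same minimum, 49.8% were higher in the SVZ and 39.5% in the cortex by that rule, so that an interval away from equality was the common case at this depth and is no result about these factors. None of the 6 passed 4-fold in favour of the SVZ, beside 6.75% of the genes tested. In the cortex direction, 2 of the 6, *Rorb* and *Mef2c*, were at least 4-fold higher, beside 4.70%. The median log2 ratio was 0.56 over the 6 factors and 0.10 over all genes tested. At a minimum of 1 CPM, which *Cux2* also passed, the counts at least 4-fold apart were again 0 and 2 of the factors, beside 10.2% and 7.01% of 12738 genes, and the 7 factors had a median log2 ratio of 0.61 but a mean of -0.51. The median and the mean thus differed in sign.

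**Figure D3:**
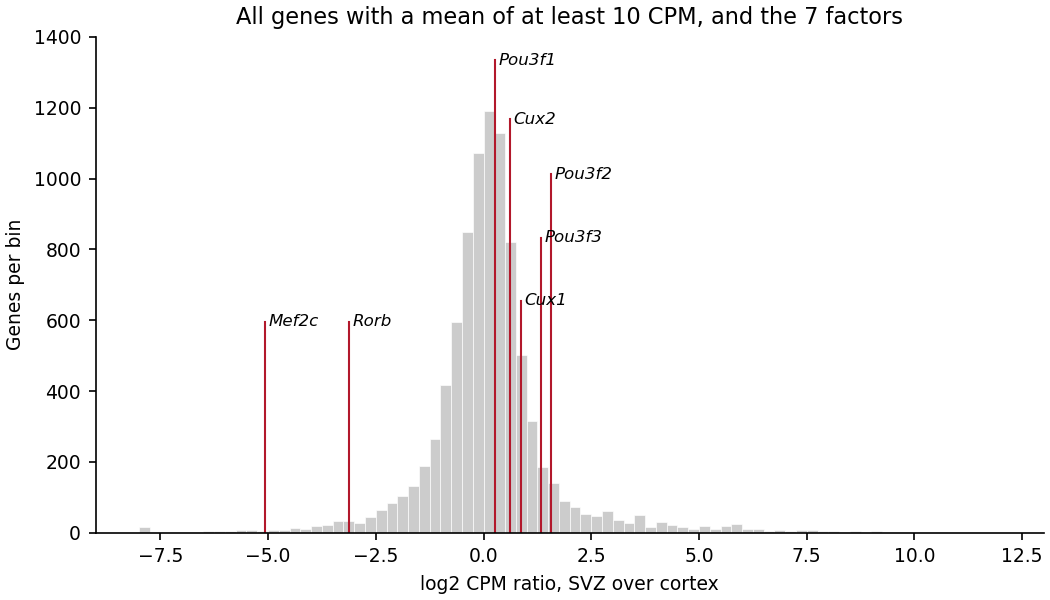
Number of genes (grey bars, bins of 0.25) by log2 CPM ratio, SVZ over cortex, for the 9027 genes whose mean reached 10 CPM, where the leftmost bar gathers all ratios below -7.75. Red lines mark the 7 factors, of which *Cux2* is below that minimum, and their heights only keep the names apart. *Mef2c* at -5.06 and *Rorb* at -3.13 lie in the thin cortex tail. The other 5 lie between 0.26 (*Pou3f1*), close to the peak, and 1.57 (*Pou3f2*), on the right shoulder.

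How many genes shared a factor's ratio fell steeply along this range. Within 0.1 of the log2 ratio there were 929 other genes for *Pou3f1*, 690 for *Cux2*, 392 for *Cux1*, 153 for *Pou3f3*, 118 for *Pou3f2*, 26 for *Rorb* and 3 for *Mef2c*. With only 2 libraries the pattern of a gene is this 1 number, so likeness says no more than that. Among 38 transcription factors of the lists, the nearest to *Cux1* and *Cux2* were *Onecut2*, a relative with a single CUT repeat, and the interneuron factor *Dlx5*, with log2 ratios of 0.83 and 0.82. *Pou2f1* (Oct1), at 1.45, was the nearest to both *Pou3f2* and *Pou3f3*, followed by *Pou3f3* for the former and the interneuron factor *Dlx1*, at 1.17, for the latter. The place of *Dlx1* is uncertain. Its unstranded counts of 1399 and 267 leave out 1821 and 419 reads that appear in the stranded count columns. *Pou3f1* was nearest to *Dlx2* at 0.04 and *Sox11* at -0.01. *Rorb* was nearest to the deep-layer factor *Zfpm2* (Fog2), at -3.27, and then *Nr4a2* (Nurr1), at -2.49. *Zfpm2* and *Rorb* were also the nearest to *Mef2c*, at distances of 1.79 and 1.93.

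A list of 11 further members of the same transcription factor families was examined next. Of the 8 whose mean reached 1 CPM, 4 were higher in the SVZ and 3 in the cortex beyond counting error, beside 48.2% and 38.6% of all genes at that minimum. None was 4-fold apart, beside 10.2% and 7.01% of all genes, which is no result about so short a list. The median log2 ratio was 0.39 beside 0.11 over all genes, and it turned to -0.05 when a mean of 10 CPM was required. In the SVZ direction stood *Pou3f4*, *Pou2f1*, *Rora* and *Onecut2*, the last at 0.83 (0.63 to 1.03) from 1080 and 261 reads. In the cortex direction stood *Mef2a*, *Satb1* and *Mef2d*. *Satb1*, a CUT-containing chromatin organizer, had 147 CPM in the SVZ and 246 CPM in the cortex and a log2 ratio of -0.74 (-0.79 to -0.69). *Pou6f1* differed by less than counting error, with 41.9 and 43.3 CPM and a log2 ratio of -0.05 (-0.16 to 0.06). *Onecut1* had 0 reads in both libraries, which allows up to 0.0583 CPM in the SVZ, and *Onecut3* had 1 and 0.

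Next, genes whose proteins are known to work with these factors were examined. SOX2 and SOX11 bind DNA beside class III POU factors, MYT1L is used with POU3F2 to convert fibroblasts to neurons, and the class IIa histone deacetylases repress through MEF2. The POU partners spread widely. *Sox2* had 57.5 CPM in the SVZ and 4.31 CPM in the cortex, a log2 ratio of 3.74 (3.44 to 4.05). This progenitor gene was weighted to the SVZ more than any class III POU factor. *Sox11* was about equal, at 5120 and 5155 CPM. *Myt1l*, a neuronal zinc finger gene, had 307 and 678 CPM and a log2 ratio of -1.15 (-1.18 to -1.11).

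Among the deacetylases, *Hdac9* was opposite to *Mef2c*. It had 54.6 CPM in the SVZ and 7.57 CPM in the cortex, a log2 ratio of 2.85 (2.62 to 3.08). *Hdac4* was also higher in the SVZ, with a log2 ratio of 0.67 (0.54 to 0.80), and *Hdac5* in the cortex, with -0.90 (-1.03 to -0.77). *Hdac7*, with 14.8 and 13.6 CPM, did not differ beyond counting error (0.13, -0.07 to 0.32). Of the 7 partner genes, 3 were higher in the SVZ and 2 in the cortex beyond counting error, beside 48.2% and 38.6% of all genes at a minimum of 1 CPM. By the 4-fold rule 2 were higher in the SVZ, beside 10.2%, and none in the cortex. The median log2 ratio of the list was 0.13 beside 0.11.

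A separate list of 9 genes associated with upper-layer neurons held genes of both directions. *Unc5d*, a netrin receptor known from multipolar cells of the SVZ, had 288 CPM in the SVZ and 6.49 CPM in the cortex, a log2 ratio of 5.47 (5.24 to 5.72). At the other end *Inhba*, an activin subunit, had 1.40 and 63.4 CPM and a log2 ratio of -5.50 (-5.86 to -5.16), which was close to that of *Mef2c*. These were the extremes of the list.

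Between them, the LIM homeodomain gene *Lhx2* (1.82) and the adhesion gene *Mdga1* (1.13) had positive log2 ratios. *Dtx4*, a Deltex ubiquitin ligase (-2.30), *Bhlhe22*, a basic helix-loop-helix factor (-2.01), and the semaphorin receptor *Plxnd1* (-0.99) had negative ones. The corepressor *Tle3* (0.13) and the LIM-only gene *Lmo4* (0.08) were about equal, and *Lmo4*, whose interval reached from -0.02 to 0.19, turned slightly negative under TMM, upper-quartile and DESeq2 scaling. By the counting interval 4 of the 9 were higher in the SVZ and 4 in the cortex, beside 48.2% and 38.6% of all genes at a minimum of 1 CPM, which is no result about the list. By the 4-fold rule 1 was higher in the SVZ and 3 in the cortex, beside 10.2% and 7.01%. The list's median log2 ratio was 0.08 (-0.02 to -0.01 under these scalings) and its mean -0.24, which differ in sign.

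**Figure D4:**
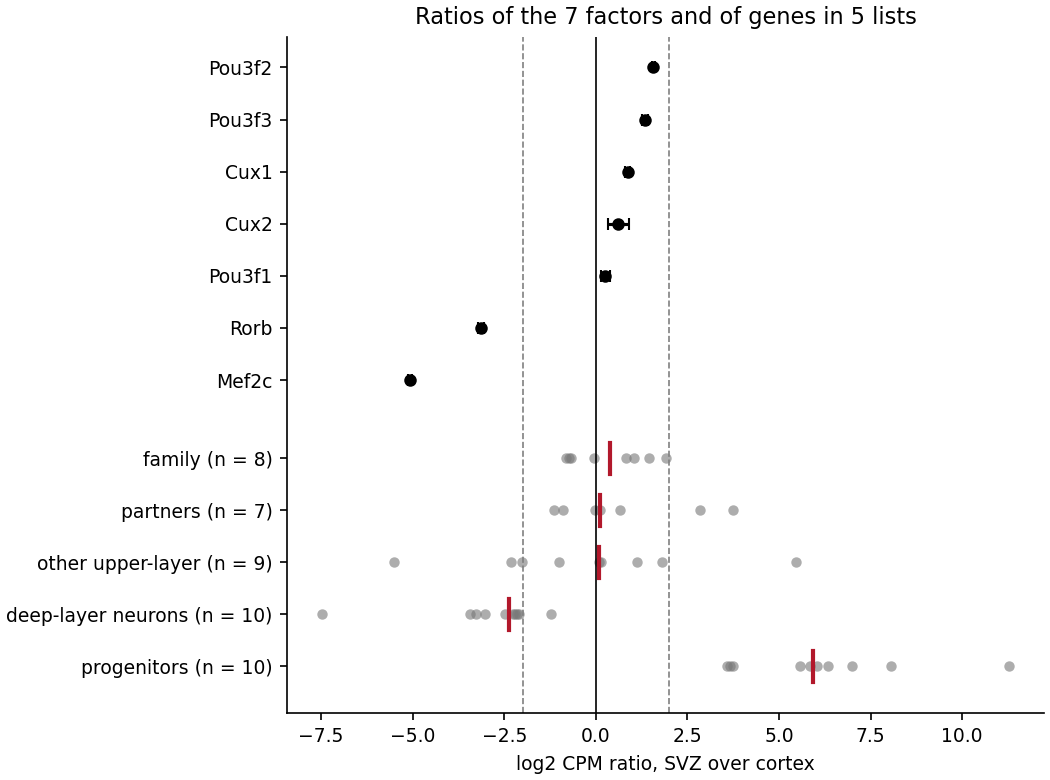
log2 CPM ratio, SVZ over cortex, of the 7 factors (black, with exact 95% counting intervals) and of the genes of 5 lists whose mean reached 1 CPM (grey points, list median as a red bar), with the solid line at equality and dashed lines at 4-fold. The factors, their 8 relatives, their 7 partners and 9 other upper-layer genes lie on both sides of equality, whereas all 10 deep-layer genes lie to the left and all 10 progenitor genes to the right.

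The split of the upper-layer factors contrasted with the deep-layer list. All 10 deep-layer genes were higher in the cortex, 9 of them by at least 4-fold beside 7.01% of all genes at a minimum of 1 CPM, with log2 ratios from -7.48 to -1.22 and a median of -2.37. *Sox5* had 302 CPM in the SVZ and 1337 CPM in the cortex, *Bcl11b* (Ctip2) 111 and 533, and *Fezf2* 59.7 and 257, with log2 ratios of -2.15, -2.26 and -2.11. These 3 regulators of subcortical projection neurons were less cortex-weighted than *Rorb* and *Mef2c*, but the list also held *Ldb2* at -3.44, below *Rorb*, *Zfpm2* at -3.27 (-3.46 to -3.09), within counting error of *Rorb*, and *Crym* at -7.48, below *Mef2c*. *Ldb2* and *Crym* are named after their values were seen, and *Crym* rests on 4 reads in the SVZ. No test stands behind the contrast between the lists, which were chosen with results of these data known.

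Markers of other cell types differed between the libraries as well. The 10 microglia genes summed to 79.0 CPM in the SVZ and 7.66 CPM in the cortex, and all were higher in the SVZ, with *Trem2* at 0 reads in the cortex. By at least 4-fold 9 of them were higher there, beside 10.2% of all genes at a minimum of 1 CPM. *P2ry12*, *C1qb* and *C1qc* led this list, at 15.7, 14.6 and 11.7 CPM in the SVZ. Microglia also express *Mef2c*, and their part in its ratio was not tested. The 10 endothelial genes, led by *Cldn5*, *Kdr* and *Egfl7*, summed to 97.7 and 81.8 CPM. By the counting interval 6 were higher in the SVZ and 3 in the cortex, beside 48.2% and 38.6% of all genes at that minimum. These counts are no result about the list. None was 4-fold apart, beside 10.2% and 7.01%.

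The 9 interneuron genes summed to 155 CPM in the SVZ and 515 CPM in the cortex. By the counting interval 5 were higher in the SVZ and 3 in the cortex, beside 48.2% and 38.6% of all genes at a minimum of 1 CPM. These counts are no result about the list. The median log2 ratio of the 9 genes was 0.38 but their mean -0.29. The sum in the cortex came mostly from *Npy*, a neuropeptide gene with 14.3 and 379 CPM, whereas *Lhx6* and *Sst* had log2 ratios of -0.29 and -1.48. The oligodendrocyte lineage genes, led by *Pdgfra*, *Olig1* and *Cspg4*, summed to 12.1 and 12.0 CPM over 5 genes, with a median log2 ratio of -0.13 and a mean of 0.31 over the 3 that reached 1 CPM. The 4 Cajal-Retzius genes *Reln*, *Calb2*, *Trp73* and *Lhx5* summed to 3.73 and 30.8 CPM, with *Lhx5* at 0 in both. The part of any of these cell types, or of the projection neuron genes that summed to 3213 CPM in the SVZ and 9260 CPM in the cortex, in the ratios of the 7 factors was not tested.

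The loci were inspected for reads that could belong to another gene. The library kit does not mark strand, and the share of each factor's reads in the first stranded column was between 46.5% and 51.0% in every case, so that reads of a gene and of an antisense partner cannot be told apart. Annotated antisense transcripts shared 394 exon bases with *Cux1* (*Gm16599*) and 330 with *Pou3f1* (*Gm2164*). The stretches of read length that these antisense transcripts share made up 2.51% of the *Cux1* transcript and 6.81% of the *Pou3f1* transcript. Neither was in the count table, and their part in the *Cux1* and *Pou3f1* values was not tested. The miRNA gene *Mir721* inside *Cux1* shared no exon base and had 1 and 3 reads. In GENCODE M21, no exon of *Cux2*, *Pou3f2*, *Pou3f3*, *Rorb* or *Mef2c* overlapped an exon of another annotated gene. The annotation behind the counts may differ. In those counts the unstranded column left out 8 and 1 reads of *Rorb* and 0 and 3 of *Pou3f3* that the stranded columns held.

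The start sites of the SVZ-higher and cortex-higher factors were also compared by base composition, using the RefSeq windows on GRCm38.p6 from 250 bases before to 50 bases after each start. An entry was found for 6 of the 7 factors, 10 windows in all. The windows of *Cux1*, *Pou3f2* and *Pou3f3* held 65.0%, 67.7% and 60.3% G and C and 25, 24 and 18 CG dinucleotides, beside medians of 52.7% and 7 over 32851 windows. *Cux2* had a window at 80.3% with 48 and another at 56.7% with 4, and *Rorb* one at 63.7% with 20 and another at 41.0% with 5. The 3 windows of *Mef2c* held 1, 10 and 4 CG dinucleotides and 35.7%, 47.0% and 48.3% G and C. Which start was in use cannot be read from gene-level counts, and no relation between composition and ratio was tested over so few genes.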

How the data were processed

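Per the study's methods, LCM areas were cut from stained cryosections, RNA was purified on columns, and low-input cDNA libraries, whose kit does not mark strand, were sequenced as paired ends. The authors trimmed adapters with cutadapt 4.1, mapped read 1 to mm10 (GRCm38) with STAR 2.7.9a and deposited the read counts per gene that STAR wrote, without normalization, in an unstranded and 2 stranded columns. The annotation release is not given in the sources used here. Multimapping reads and reads over more than 1 gene are not counted by STAR. The authors also deposited a table of 14240 genes with counts, CPM, a fold change and its log10. Its counts equalled those used here for 14 of 14 values of the 7 factors, and the comparison columns were not used.

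Here the unstranded counts were divided by the total of gene rows, without the 4 STAR summary lines (CPM). For ratios a count of 0 was replaced by 3 reads and the result treated as a bound, and pairs with neither count above 3 got none. Ratios and shares have exact 95% Clopper-Pearson intervals, and differences between ratios exact conditional ones. Lengths and coding sequences came from GENCODE M21 (GRCm38), aligned with MAFFT 7.526. Named are the 7 factors, every gene of the family, partner and other upper-layer lists, the 3 genes of each marker list with the highest mean CPM, the 2 transcription factors nearest in ratio to each factor, and genes overlapping a factor. Some list genes are not reported here and entered no list count. The factors and lists were chosen with earlier results of these data known. Alternatives were TMM and upper-quartile factors (edgeR 4.0.16), size factors from DESeq2 1.42.0, totals that leave out the 10 genes with most reads, the stranded columns, a pseudocount of 1 CPM, the SVZ library thinned to the depth of the cortex library, other minimums, fold thresholds and lengths, and the list mean. The procedures were run on simulated counts that held counting error only. Variation among animals or dissections and copies made by PCR were not simulated. Software was R 4.3.3 and Python 3.11.15 with scipy 1.17.1, numpy 2.4.6, matplotlib 3.10.9 and pandas 2.3.3.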

Additional observations from a re-analysis of the deposited data

Results flagged for a closer look

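In the stranded count columns, which the comparisons did not use, some genes had reads that the unstranded count leaves out. The cause was not tested. Of 34 genes examined (the 7 factors, their relatives, partners and other upper-layer genes), 3 passed the limit of 3 reads that a count of 0 allows. *Rorb* had 8 such reads in the SVZ, 0.418% of its unstranded count there. *Pou2f1* had 23 in the SVZ, or 1.06%. *Hdac7* had 8 in the SVZ and 5 in the cortex, or 1.05% and 1.67%. Most genes of the marker lists were outside these 34, and some of them lost far more. *Dlx1* had 1821 such reads in the SVZ and 419 in the cortex, beside unstranded counts of 1399 and 267. *Pax6* had 404 and 42, beside 9245 and 15. *Nefm* had 14 and 183, beside 55 and 461. These marker genes are named for the size of the loss.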

How the results depend on the processing

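No result reversed its direction among the alternatives run for the 7 log2 ratios. No replicate could be left out, since each area is 1 library. No paired analysis was possible because the comparisons are of 1 library with 1 library and come from no test. TMM, upper-quartile and DESeq2 scaling moved the median of all genes tested by -0.093, -0.099 and -0.093 on the log2 scale, and the ratios moved with it. In that order of scalings the log2 ratio was 0.78, 0.77 and 0.78 for *Cux1*, 1.48, 1.47 and 1.48 for *Pou3f2*, 1.25, 1.24 and 1.25 for *Pou3f3*, -3.22, -3.23 and -3.22 for *Rorb* and -5.16 under each for *Mef2c*. The other 48 of 63 ratios under alternatives stayed within counting error of the value given. All 97 list values under alternatives stayed within the spread of the list's genes. That spread is wide and the scalings shift all genes alike, so this is a weak check. The median of the other upper-layer list, 0.08, became -0.01 under TMM and DESeq2 and -0.02 under upper-quartile scaling. There *Lmo4*, its median gene, changed sign. The median of the family list became -0.05 at a minimum of 10 CPM. The counts of all genes past 4-fold toward the SVZ and toward the cortex, 609 and 424, became 1300 and 893 at a minimum of 1 CPM, 87 and 100 at 100 CPM, where the cortex held more, and 1868 and 1473 without a minimum. They became 1341 and 1113 at a 2-fold threshold and 329 and 158 at 10-fold. Of the 6 factors tested, 2 passed 2-fold in the SVZ and 2 in the cortex, beside 14.9% and 12.3% of 9027 genes. At 10-fold 0 and 1 passed, beside 3.64% and 1.75%. Counted per kilobase of exon, the SVZ shares were 83.0% for *Pou3f2*, 11.3% for *Pou3f3*, 4.30% for *Pou3f1*, 89.8% for *Cux1*, 10.2% for *Cux2*, 59.2% for *Mef2c* and 83.5% for *Rorb*. The cortex shares were 12.2% for *Pou3f3*, 9.89% for *Pou3f1*, 88.0% for *Cux1*, 12.0% for *Cux2* and 96.5% for *Mef2c*. With the longest transcript as length, the SVZ levels were 11.9 RPKM for *Cux1*, 11.6 for *Mef2c*, 4.00 for *Rorb* and 0.998 for *Cux2*, and the cortex levels 388 RPKM for *Mef2c*, 35.0 for *Rorb* and 6.51 for *Cux1*. Depth limits *Cux2* most, with 127 reads in the cortex.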

Other observations

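The genes that flank the 7 factors did not follow one pattern. *Pantr1* and *Pantr2*, long noncoding RNA genes on the opposite strand to *Pou3f3* and at 926 and 3885 bases from it, were both more SVZ-weighted than their neighbour. For *Pantr1*, 41519 reads came from the SVZ against 2764 from the cortex, 807 and 125 CPM, and a log2 CPM ratio of 2.69 (exact 95% interval 2.63 to 2.74). *Pantr2* had 1128 and 23 reads, 21.9 and 1.04 CPM, and a log2 ratio of 4.39 (3.80 to 5.06). *Pou3f3* itself stood at 1.34. The kit does not mark strand.

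Both neighbours of *Pou3f2* had the same direction as the factor, which stood at 1.57. *Fbxl4* had a log2 ratio of 0.60 (0.42 to 0.78) from 1191 and 337 reads, and *Mms22l*, much farther away at 2008085 bases, had 4.22 (3.87 to 4.59) from 2952 and 68 reads. For *Cux1*, *Cux2* and *Rorb*, a neighbour had the opposite direction. *Sh2b2*, an adaptor gene 1579 bases from *Cux1* on the same strand, had 267 reads in the SVZ and 746 in the cortex and a log2 ratio of -2.70 (-2.91 to -2.50), beside 0.87 for *Cux1*. *Sh2b3*, 18720 bases from *Cux2*, stood at -0.43 (-0.78 to -0.07), beside 0.61 for *Cux2*, whose other neighbour *Myl2* had 26 reads in the SVZ and 0 in the cortex. *C130071C03Rik*, a noncoding RNA gene 54301 bases from *Mef2c*, had a log2 ratio of 0.15 (0.05 to 0.24) from 3519 and 1364 reads, beside -5.06 for *Mef2c*. *Trpm6*, a channel gene 38094 bases from *Rorb*, had a log2 ratio of 1.59 (0.74 to 2.55) from 91 and 13 reads, beside -3.13 for *Rorb*. The neighbours of *Pou3f1* had at most 5 reads in either library. These genes were taken as the nearest listed gene on each side and were chosen after the factors' own values were known. By the counting interval, 48.2% of all genes at a minimum of 1 CPM were higher in the SVZ and 38.6% in the cortex. The direction of a neighbour is therefore no result by itself.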
